A study of Drosophila melanogaster with 12 samples.

Results

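Mitochondrial ribosomal proteins build the ribosome that works inside mitochondria. The genes described here were chosen by their symbols, mRpL for the large subunit and mRpS for the small subunit, each followed by a number. There were 73 such genes, 47 of the large and 26 of the small subunit, among 17592 gene symbols found in all 6 RNA-Seq libraries. The subunit given here is that of the symbol. *mRpS30* and *mRpS18A* count as small subunit genes, although in mammals their counterparts are placed in the large subunit. All 73 were matched by symbol in the RefSeq gene table of the Release 6 genome, where 12 lie on chromosome arm 2L, 12 on 2R, 17 on 3L, 21 on 3R and 11 on X. They were short, with a median length of 909 bp, against 2160 bp over 13962 protein-coding genes.

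The samples were second legs (T2) of *D. melanogaster* pupae of the strains eworo and OreR, kept at 25 °C and aged 20 to 28 h from the formation of the puparium (hAPF). eworo carries the alleles *ebony*[4], *white ocelli*[1] and *rough*[1] and has a large naked valley, the patch of the leg without trichomes. OreR is the laboratory strain Oregon R and has a small naked valley. There were 3 RNA-Seq and 3 ATAC-Seq samples per strain, each a pool of legs from many pupae. The strains differ in their whole background as well as in the named alleles, which cannot be told apart.

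The mitochondrial ribosome translates the few messages of the mitochondrial genome, which in animals encode core subunits of the respiratory chain and of ATP synthase. Its RNAs come from the mitochondrial genome, whereas all of its proteins are encoded in the nucleus, made in the cytosol and imported. The small subunit binds the message and decodes it, and the large subunit joins the amino acids. Many of its proteins descend from proteins of the bacterial ribosome, and others joined it in the course of eukaryotic evolution.

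Nearly all of these genes were expressed in pupal legs. With every gene given the value of the entry that holds it, 69 of 73 were above 1 FPKM on average (fragments per kilobase of transcript, scaled to the mapped fragments of the library) in each strain, which were 43 genes of the large and all 26 of the small subunit. The other 4, *mRpL10*, *mRpL16*, *mRpL18* and *mRpL35*, were listed at exactly 0 in all 6 libraries. With values taken from entries in the same way, 7598 of 13946 protein-coding genes had a mean above 1 FPKM over all 6 libraries. The values are those that Cufflinks gave for each library separately. Each library was assembled separately, and genes that overlap were put in a single entry, so that a gene may stand alone in one library and share its value with a neighbour in the next. Of the 73 genes, 38 had an entry of their own in all 6 libraries (24 large, 14 small), 22 were joined with another gene in 1 to 5 libraries, and 13 were joined in all 6. Joining in at least 1 library thus touched 35 of these genes (47.9%), against 36.1% of the 17592 symbols. Of the 38 with an entry of their own, 31 were above 0 in every library (19 large, 12 small), and the levels below rest on these 31. In bulk legs fewer cells with active mitochondria and less RNA per cell cannot be told apart.

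Per length, the 31 genes had similar levels. Their means over 6 libraries lay between 22.8 and 122 FPKM, with a median of 32.9 FPKM. The upper quartile was 1.79 times the lower one (50.8 against 28.4 FPKM), whereas this ratio was 6.21 over 3788 single genes above 0 in all libraries with a mean above 1 FPKM. For 37 proteins of the cytosolic ribosome the ratio was 1.60 around a median of 3021 FPKM, and for 28 proteins of the respiratory chain and ATP synthase it was 2.45 around a median of 148 FPKM. Large and small subunit genes overlapped almost completely. In eworo the median of the strain means was 38.7 FPKM for the large and 34.6 FPKM for the small subunit, and in OreR it was 34.4 and 31.4 FPKM.

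*mRpL33* (FBgn0040907, chromosome X from 4321764 to 4322231), a small protein of the large subunit with a bacterial counterpart, was the highest of the 31 genes. It had 135, 115 and 145 FPKM in eworo libraries 1 to 3, against 114, 112 and 113 FPKM in OreR libraries 1 to 3. Next among the 31 were *mRpL27* and *mRpL12*. *mRpL27* (FBgn0053002, 2L from 4458595 to 4459638), whose bacterial counterpart lies at the catalytic centre, had 82.6, 62.1 and 79.6 FPKM in eworo against 63.9, 61.9 and 53.2 FPKM in OreR. *mRpL12* (FBgn0011787, 3L from 8956791 to 8957584) encodes the protein of the flexible stalk to which the elongation factors dock. It had 77.6, 57.5 and 61.8 FPKM in eworo, against 61.4, 62.5 and 49.2 FPKM in OreR, so that the strains overlapped. Genes outside the 31 ranked higher than these in the deposited pooled table, described further down. There *mRpL34* had 104 FPKM in eworo against 83.5 FPKM in OreR, *mRpS21* 94.5 against 88.2 FPKM and *mRpL30* 81.4 against 63.3 FPKM. In that table *mRpL27* had 60.2 against 46.3 FPKM and *mRpL12* 61.0 against 53.1 FPKM, while *mRpL33* had 176 against 147 FPKM.

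The base of the same stalk is made by *mRpL10* and *mRpL11*, and these stood at the other end of the range. *mRpL11* (FBgn0038234, 3R from 14511838 to 14512691) was the lowest of the 31, with 26.6, 20.8 and 23.9 FPKM in eworo against 19.7, 25.7 and 20.2 FPKM in OreR. *mRpL10* (FBgn0031231, 2L from 203779 to 204782) was listed at 0 throughout, although the deposited pooled table, described further down, holds 22.4 FPKM in eworo against 19.7 FPKM in OreR. The other genes of high level were *mRpL39*, at 59.3 ± 8.88 FPKM in eworo against 55.0 ± 2.27 FPKM in OreR (SD, n = 3 each), and *mRpS7*, part of the head of the small subunit, at 59.0 ± 11.6 FPKM in eworo against 48.6 ± 1.93 FPKM in OreR. Low genes besides *mRpL11* were *mRpS35*, *mRpL45*, whose human counterpart ties the ribosome to the inner membrane, *mRpL37* and *mRpL21*. The means of these 4 genes lay between 24.2 and 27.1 FPKM in eworo and between 24.8 and 25.6 FPKM in OreR.

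Proteins of different origin overlapped in level. Large subunit genes whose number is also used for a bacterial family had a median of 47.3 FPKM (10 genes), against 31.0 FPKM for 9 with higher numbers, while in the small subunit these medians were 39.4 FPKM (4 genes) and 32.7 FPKM (8 genes). The quartiles overlapped in both subunits. The numbers are an imperfect guide to origin, since *mRpS24* and *mRpL47* carry high numbers and yet their human counterparts are related to bacterial proteins.

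**Figure D1:**
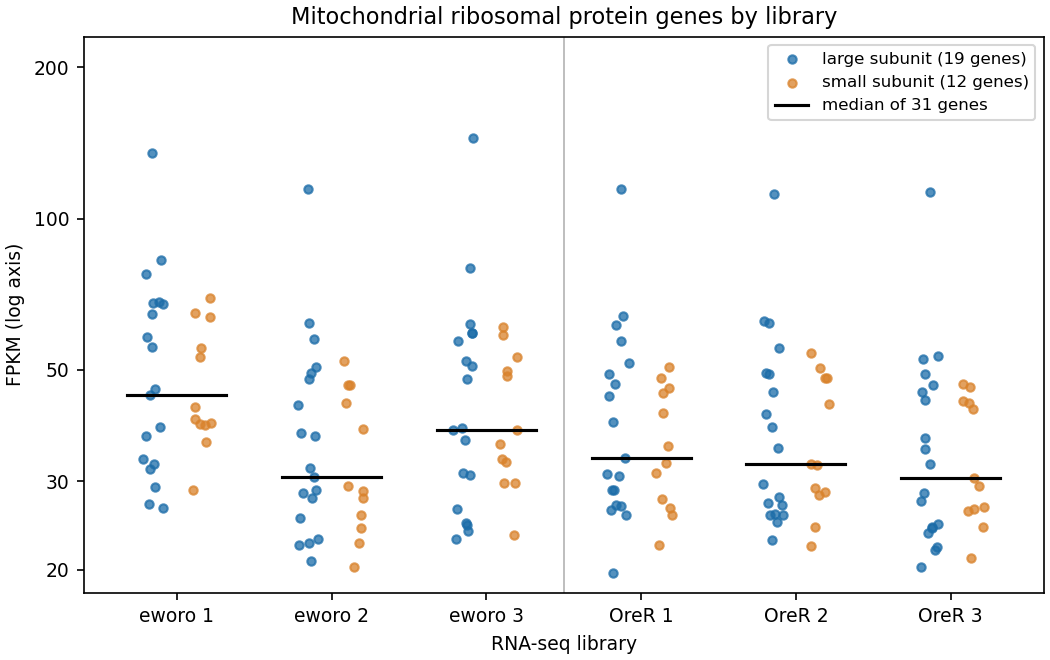
FPKM on a log axis of the 31 genes with an entry of their own above 0 in all 6 RNA-Seq libraries, by library, with 1 point per gene (large subunit blue, small subunit orange) and a bar at the median of all 31. The medians were 44.5, 30.6 and 38.0 FPKM in eworo 1 to 3, against 33.4, 32.5 and 30.5 FPKM in OreR 1 to 3, and the highest point of each library is *mRpL33*.

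The 31 genes moved together between the libraries of eworo. eworo library 1 held the highest value of 29 of the 31 genes, while eworo library 2 held the lowest value of 12 and OreR library 3 that of 13. The median log2 deviation of the genes from their own 6-library mean was 0.31 in eworo 1, -0.15 in eworo 2 and 0.11 in eworo 3, against -0.06, -0.05 and -0.17 in OreR 1 to 3. Large and small subunit genes shared this order within eworo, with 0.29, -0.12 and 0.08 for the large and 0.33, -0.19 and 0.13 for the small subunit. The coefficient of variation between libraries had a median of 16.4% in eworo and 5.88% in OreR. Within a library the deposited confidence limits lie, at the median gene, 6.90% above the value, which is the only measure of depth in these files, as they hold no read counts.

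This pattern was shared with other groups of genes. Proteins of the cytosolic ribosome deviated by 0.33, -0.16 and 0.24 in eworo 1 to 3, and those of the respiratory chain and ATP synthase by 0.33, -0.13 and 0.17. It was also seen in 417 entries with a locus of up to 1000 bp (0.19, -0.18 and 0.27 in eworo), and it was opposite in 750 entries with a locus over 10000 bp (-0.41, 0.20 and -0.16). Of the 31 genes, 30 have a locus of at most 2100 bp. The exception is *mRpS9* (FBgn0037529, 3R from 7889277 to 7902667), a protein of the head of the small subunit whose locus is over 10000 bp long. It had 53.0, 52.0 and 48.5 FPKM in eworo against 48.3, 54.0 and 46.3 FPKM in OreR, which is to say that eworo library 1 did not stand out for it. Summed markers of muscle, a tissue rich in mitochondria, did not follow this order, with 161, 513 and 326 FPKM in eworo 1 to 3, against 217, 453 and 496 FPKM in OreR 1 to 3 (9 of 9 markers above 1 FPKM in both strains). Most of that spread came from *Tm2* and *Mhc*, which were joined with other genes in some libraries. Without them the sums of the other 7 were 155, 178 and 137 FPKM in eworo, against 204, 167 and 203 FPKM in OreR, and the 3 markers with an entry of their own throughout (*Mlc1*, *up* and *wupA*) summed to 21.04, 21.91 and 22.9 FPKM in eworo, against 44.18, 22.58 and 34.6 FPKM in OreR. Markers of the leg epidermis (8 of 8 above 1 FPKM in both strains) were lowest in eworo 1, with 259, 487 and 344 FPKM in eworo, against 471, 379 and 538 FPKM in OreR. Those of the fat body (4 of 4) were highest in eworo 3, with 288, 234 and 542 FPKM in eworo, against 301, 330 and 399 FPKM in OreR. Tracheal markers (4 of 4, all in joined entries) were highest in eworo 1, with 151, 138 and 130 FPKM in eworo, against 121, 134 and 118 FPKM in OreR. Markers of neurons (3 of 5) and haemocytes (3 of 4) were highest in eworo 2. Neurons had 49.68, 65.45 and 57.84 FPKM in eworo, against 53.77, 46.79 and 60.77 FPKM in OreR. Haemocytes had 25.89, 52.52 and 45.12 FPKM in eworo, against 26.89, 40.69 and 28.35 FPKM in OreR. The part of locus length and of these tissues in the levels of eworo library 1 was not tested. A fit with the trend on locus length removed is given below.

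**Figure D2:**
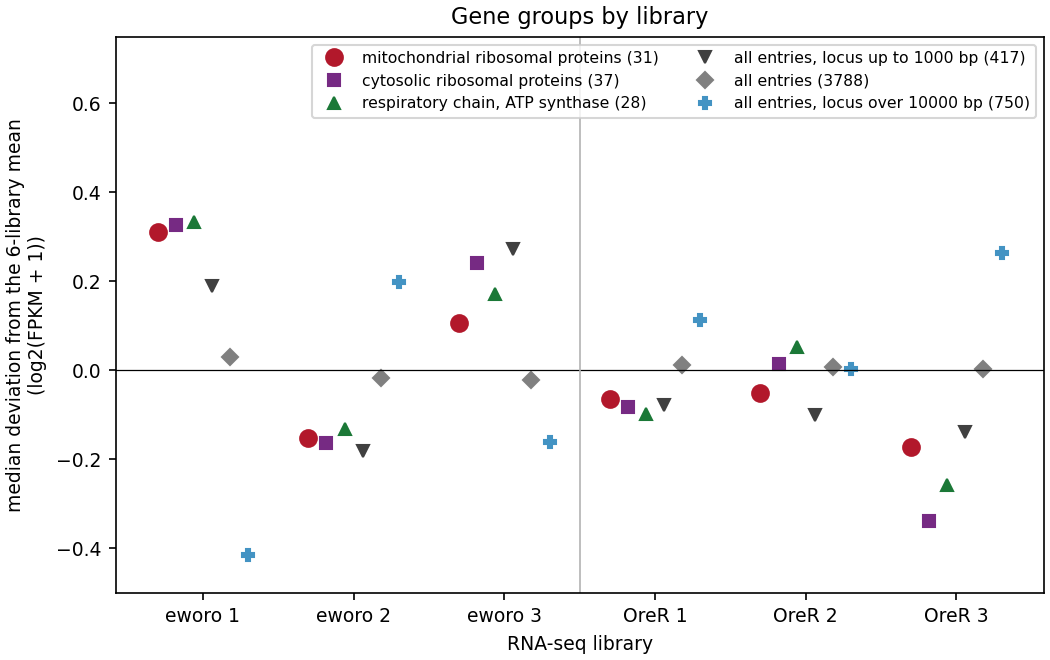
Median deviation of gene groups from their 6-library mean, in log2(FPKM + 1), for each RNA-Seq library, with the number of genes in brackets. The mitochondrial ribosomal protein genes (red circles) sit at 0.31 in eworo 1 and at -0.15 in eworo 2, close to the cytosolic ribosomal proteins and the respiratory chain and opposite to entries with a long locus, while all entries together stay near 0.

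A value of exactly 0 was given to 17 of the 73 genes in at least 1 library (13 large, 4 small), which made 45 of the 438 values of these genes. Among the 36 with an entry of their own in all libraries and a mean above 1 FPKM 5 had such a 0 (13.9%), near the 13.3% of 4369 single genes above that mean. The files mark all 45 of these entries as successfully estimated. *mRpL19* (FBgn0037608) had 37.2, 0 and 31.0 FPKM in the 3 eworo libraries, against 30.7, 29.7 and 26.1 FPKM in the 3 OreR libraries. *mRpS31* (FBgn0036557) was likewise at 0 in eworo 2 alone, *mRpS17* (FBgn0034986) in eworo 3 alone and *mRpL47* (FBgn0014023) in OreR 2 alone, each with between 23.5 and 60.9 FPKM in the other 5 libraries. *mRpL48* (FBgn0031357) was above 0 in a single library of each strain, at 34.9 FPKM (eworo 3) and 28.4 FPKM (OreR 2).

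The zeros were not found in the second deposited table, which holds pooled FPKM of each strain from Cuffdiff. In it 67 of the 73 genes have an entry of their own and 4 a joined one, and *mRpS5* and *mRpS34* were not matched by identifier. Of the 17 genes with a 0, 16 had an own entry there, and all 16 were above 5 FPKM in both strains, with values between 22.4 and 104 FPKM in eworo and between 19.7 and 83.5 FPKM in OreR. The 4 genes at 0 in every library were among them. *mRpL16*, whose bacterial counterpart lies near the catalytic centre, had a pooled 30.6 FPKM in eworo against 26.8 FPKM in OreR, *mRpL18* had 31.7 FPKM in eworo against 21.9 FPKM in OreR, and *mRpL35* had 23.8 FPKM in eworo against 22.2 FPKM in OreR. Over all 67 genes the pooled values ran from 21.9 to 176 FPKM in eworo, with a median of 37.0 FPKM, and from 18.1 to 147 FPKM in OreR, with a median of 30.7 FPKM. These pooled values have no replicates and carry no error here.

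The remaining genes with a 0 were *mRpL15*, *mRpL23*, *mRpL34*, *mRpL36*, *mRpL42*, *mRpL46*, *mRpS16* and *mRpS29*, in which joining and zeros came together. *mRpL34* was listed at 0 in eworo 1, where it stood alone, and shared 268 to 330 FPKM with *Rho1*, a small GTPase of the cytoskeleton, in the other 5. *mRpS16*, joined with *CR44368* throughout, had 35.0, 0 and 243 FPKM in eworo against 18.2, 0 and 0 FPKM in OreR. *mRpS29*, the counterpart of the GTP-binding human protein DAP3, was at 0 in OreR 1 and between 24.4 and 31.8 FPKM in the other libraries.

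A joined entry gave a value far from that of the gene alone in some genes and close to it in others. The most extreme was *mRpL17*, which shares an entry with the secreted growth factors *miple1* and *miple2*. This entry had 999, 898 and 1055 FPKM in eworo against 831, 884 and 803 FPKM in OreR, whereas the pooled table gives *mRpL17* by itself 52.3 FPKM in eworo against 38.3 FPKM in OreR. Of the 22 genes joined in some libraries only, 19 were above 0 on the median in both forms. For 13 of these the median of the joined entries was higher than that of the gene alone, and for 6 it was lower. The ratio of the joined to the own median was 1.5 or more for 8 of the 19. It ran from 0.442 for *mRpL14* to 4.18 for *mRpS30*. *mRpS30*, which in mammals was found to sit in the large subunit, was joined in eworo 1 and 3, with 151 and 98.2 FPKM, and stood alone in eworo 2, with 23.6 FPKM, and in all 3 OreR libraries, with 31.9, 30.4 and 29.2 FPKM. *mRpS18B*, which belongs to one family with *mRpS18A* and *mRpS18C*, had 64.3 to 78.5 FPKM in the 3 libraries in which it was joined with *Taf13* and 22.7 to 26.1 FPKM in the others. A difference between strains in such a gene therefore cannot be told apart from the joining.

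**Figure D3:**
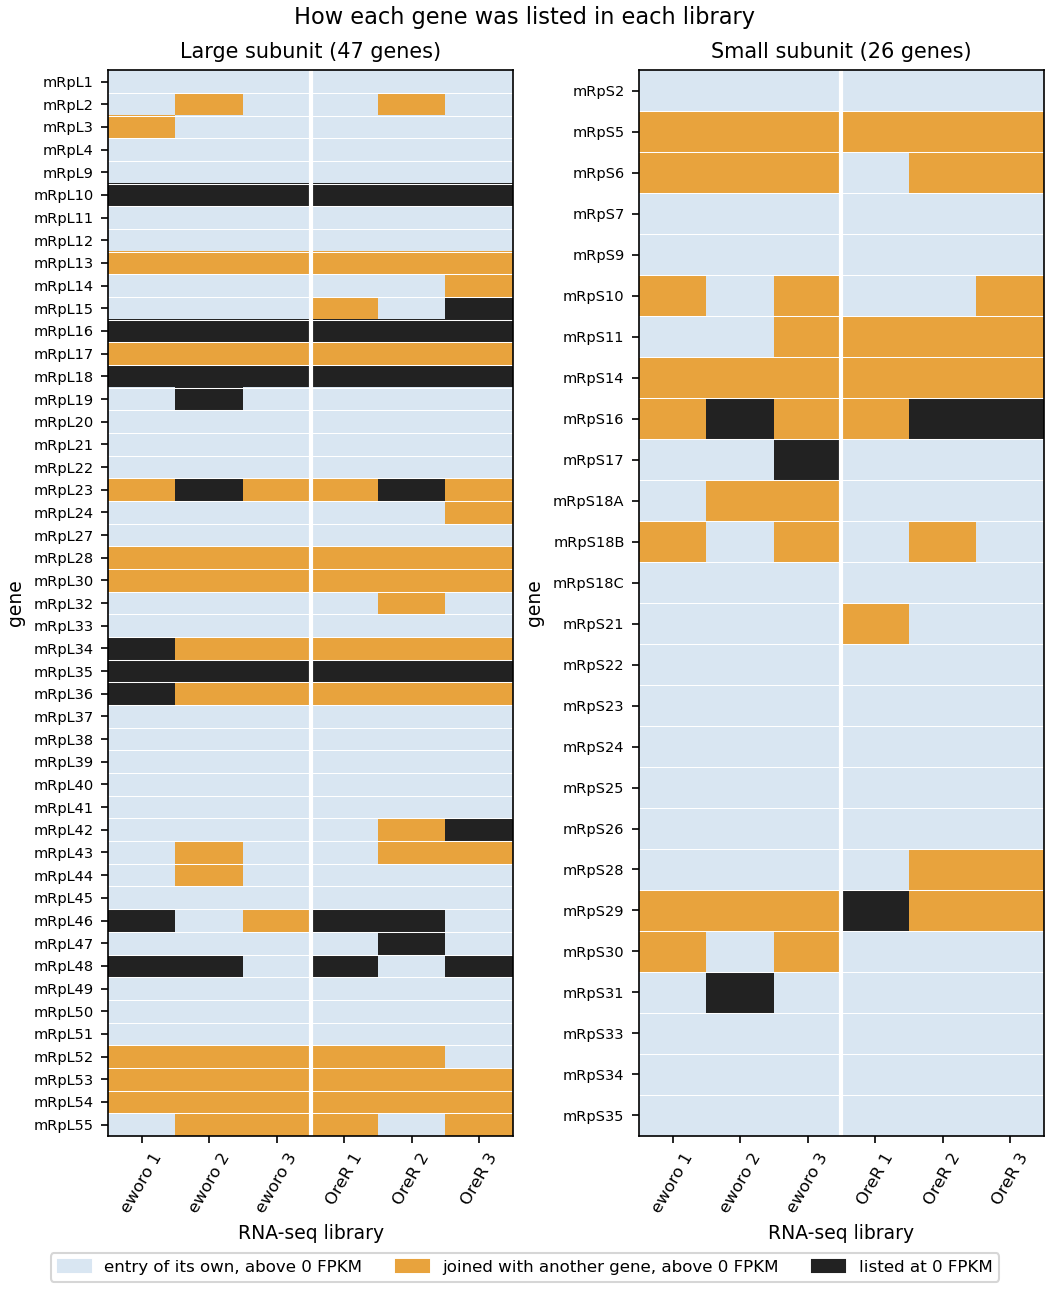
Each of the 73 genes (rows, large subunit on the left and small subunit on the right) in each RNA-Seq library (columns, eworo 1 to 3 and OreR 1 to 3), shown as an entry of its own above 0 FPKM (pale blue), an entry joined with another gene (orange) or an entry listed at 0 FPKM (black). The 4 rows that are black throughout are *mRpL10*, *mRpL16*, *mRpL18* and *mRpL35*, and 31 rows are pale blue throughout.

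No gene of the mitochondrial ribosome differed between eworo and OreR past the threshold. Entries with one name in all 6 libraries and a mean above 1 FPKM (4848) were compared with limma on log2(FPKM + 1) after scaling, and p-values were adjusted over all of them by Benjamini-Hochberg with a threshold of 0.05. Over all entries tested, 84 were higher in eworo (1.73%) and 44 lower (0.908%), together 2.64%. Of the 36 genes of the mitochondrial ribosome with an entry of their own in this fit, 0 were higher and 0 were lower, and 1 had an unadjusted p under 0.05, against 15.3% of all entries. The lowest adjusted p of limma was 0.323, for *mRpS24*. Log2 differences on this scale slightly understate the change of low genes.

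The fitted differences nevertheless lay mostly on one side. The median was 0.17 on the log2 scale over the 36 genes (22 large, 0.17, and 14 small, 0.16), against -0.01 over all entries, and 30 of 36 were positive, whereas 48.6% of all entries were. The standard error of a single gene had a median of 0.15, about the size of the median difference. In 30 of the 31 genes above 0 in all libraries eworo 1 exceeded every OreR library, and eworo 3 did so in 21, but eworo 2 in 5. eworo 2 was below every OreR library in 12. The libraries of the strains were thus separate for 5 genes, *mRpL20*, *mRpL33*, *mRpL50*, *mRpS18C* and *mRpS24*, all with eworo higher. They made 5 of 36 (13.9%), near the 12.6% of all entries with eworo higher and no overlap, and 0 genes had eworo lower without overlap (10.6% of all entries). For a single eworo library outside the OreR range, the share of all entries is not given here. The counts of 30, 21, 5 and 12 therefore cannot be set against it.

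*mRpL40* had the largest difference among the genes above 0 throughout, with 44.5, 28.4 and 36.2 FPKM in eworo against 28.9, 25.8 and 22.2 FPKM in OreR. The fit gave it 0.48 ± 0.19 (log2, SE, limma adjusted p = 0.326), and the strains overlapped through eworo 2 and OreR 1. *mRpS18C* followed, with 40.0, 22.6 and 29.8 FPKM in eworo against 22.5, 22.3 and 21.1 FPKM in OreR. Here the strains did not overlap, yet eworo 2 was barely above the highest OreR library, and the difference was 0.44 ± 0.21 (limma adjusted p = 0.370). *mRpS24*, whose human counterpart is related to a bacterial protein at the entrance of the messenger channel, had 39.2, 29.4 and 35.7 FPKM in eworo against 27.7, 28.6 and 26.6 FPKM in OreR, a difference of 0.31 ± 0.12. *mRpL51* and *mRpL27* had differences of 0.36 ± 0.17 and 0.32 ± 0.14.

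Of the 5 genes with the highest levels among those above 0 throughout, *mRpL27* is given above. *mRpS7* had a difference of 0.26 ± 0.16, *mRpL33* of 0.21 ± 0.10, *mRpL12* of 0.18 ± 0.16 and *mRpL39* of 0.10 ± 0.13, none of which passed the test. At the low end of the differences were *mRpL37* (-0.04 ± 0.13), *mRpS35* (-0.04 ± 0.14), *mRpL45* (-0.03 ± 0.10), *mRpS26* (0.03 ± 0.15) and *mRpS9* (0.05 ± 0.09). For the 5 genes with a 0 in some of their own entries the fit returned differences between -1.74 (*mRpS17*) and 1.97 (*mRpL47*) with standard errors of 1.42 to 2.03, and these are differences between a 0 and the other libraries. With zeros taken as missing, *mRpS17*, *mRpL19* and *mRpS31* turned to differences of 0.15, 0.24 and 0.25.

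The one-sided median changed sign when a trend with locus length was taken out. This step also takes out whatever else entries of like length share, and the cause of the change was not tested. When a trend of the log2 values with locus length was removed in each library, the median over the 36 genes was -0.03, with 15 positive and 21 negative, and over the 31 genes above 0 in all libraries the differences ran from -0.23 to 0.26. Among these 31, *mRpS9*, with its long locus, moved the other way, to 0.23. For the cytosolic ribosomal proteins (37 genes) the median was 0.26 before and 0.11 after this step, and for the respiratory chain and ATP synthase (28 genes) it was 0.23 before and 0.09 after. Without eworo library 2 the median of the 36 genes was 0.31 and without eworo library 1 it was 0.06. No gene passed the test in either case, although without eworo library 2 the lowest limma adjusted p was 0.0909. In that setting 14 of the 36 had an unadjusted p under 0.05. The share of all entries with such a p in that setting is not given here, so the 14 cannot be set against it.

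**Figure D4:**
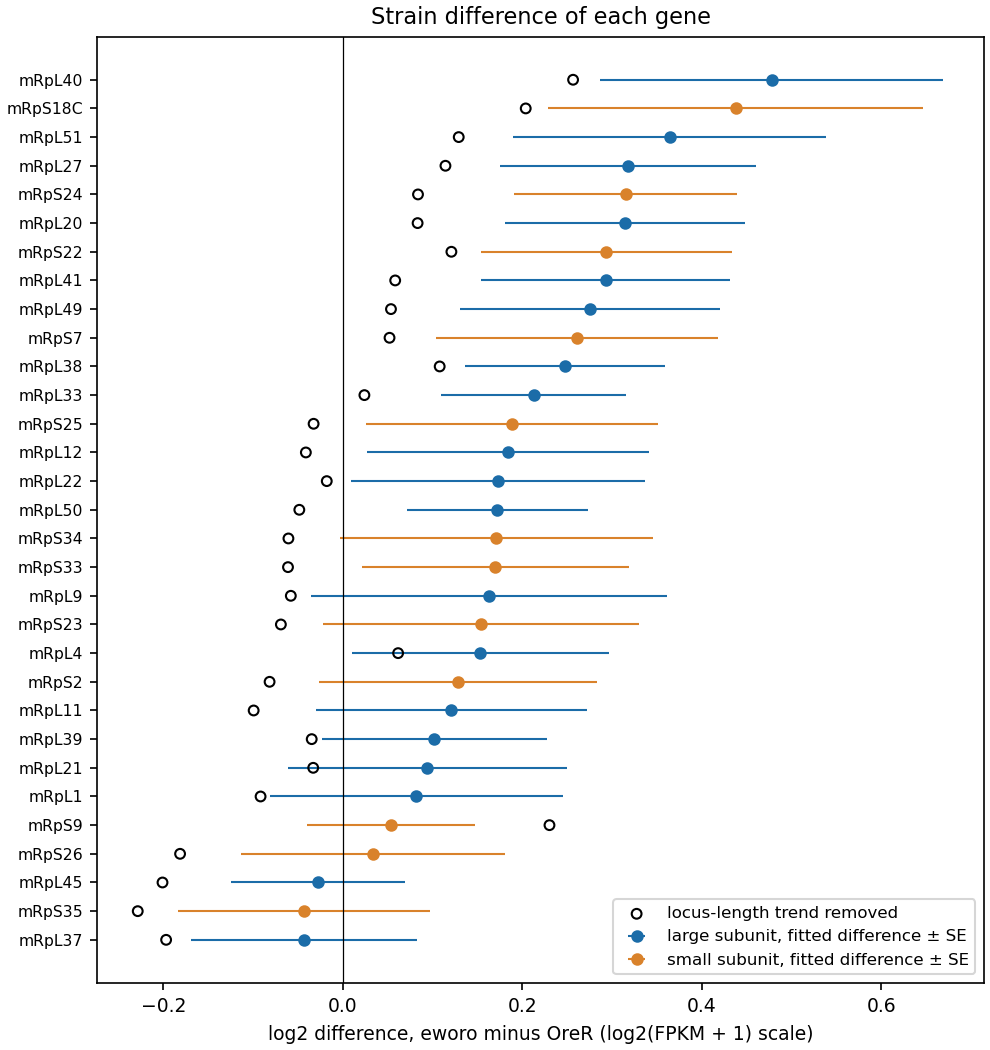
Log2 difference of eworo minus OreR with its standard error for the 31 genes above 0 in all libraries (filled points, large subunit blue and small subunit orange), and the same difference after removal of the trend with locus length (open circles). The filled points run from -0.04 to 0.48, with 28 of 31 above 0, and 14 of the 31 open circles are above 0.

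Of the joined entries with one name in all libraries, 9 hold a gene of the mitochondrial ribosome and entered the same fit, and none of them passed the test. The nearest to the threshold was the entry of *mRpL53* with *CG33155*, whose annotated span holds it. It had 124, 103 and 110 FPKM in eworo against 71.2, 79.2 and 79.0 FPKM in OreR, without overlap, and differed by 0.55 ± 0.10 (limma adjusted p = 0.0687). The value belongs to both genes, and the share of each is not known. The entry of *mRpS14* with *CG32533* had 83.4, 12.3 and 13.9 FPKM in eworo against 12.9, 12.5 and 11.7 FPKM in OreR, so that its difference came from eworo 1 alone.

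The genes that work with these proteins in mitochondria were expressed too. *tko* and *bonsai* encode further proteins of the small subunit under names of their own. *tko*, known for the bang-sensitive seizures of its mutant, had 81.2, 59.2 and 70.3 FPKM in eworo against 54.1, 58.8 and 52.1 FPKM in OreR, a difference of 0.34 ± 0.14 (limma adjusted p = 0.325), which is within the range of the mRpL and mRpS genes. *bonsai* was listed at 0 in eworo 2 and in OreR 1 and 2 and otherwise had 44.9 and 38.6 FPKM (eworo 1 and 3) and 38.9 FPKM (OreR 3). With every gene given the value of its entry, 32 of 36 genes of mitochondrial translation, tRNA charging and gene expression found in the files averaged above 1 FPKM in each strain.

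Among 9 translation factors *CG6412* (mEFTs), which recharges the factor that delivers charged tRNA to the ribosome, was the highest with an entry of its own in all libraries. It had 43.1, 31.4 and 37.9 FPKM in eworo against 31.2, 35.2 and 33.5 FPKM in OreR. That delivery factor itself, *EfTuM* (mEFTu1), had 96.1, 84.7 and 79.1 FPKM in eworo against 78.2, 87.0 and 69.9 FPKM in OreR, in entries always joined with *mip120*. Its relative *CG12736* (mEFTu2) had 19.9 to 27.0 FPKM in eworo against 29.2 to 31.7 FPKM in OreR, and was joined with *dpa* in 4 of the 6 libraries.

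Of the 16 genes listed for charging mitochondrial tRNAs, counting the synthetase-like *Slimp*, 13 were above 1 FPKM in both strains. The 3 with the highest means were all joined in some or all libraries. *CysRS-m* had 9.85, 6.25 and 5.92 FPKM in eworo against 366, 5.29 and 268 FPKM in OreR, where its entries in OreR 1 and 3 also hold *Tango7*. *TyrRS-m* ranged from 10.9 to 91.8 FPKM in eworo and from 63.6 to 105 FPKM in OreR, and *SerRS-m* from 58.3 to 67.8 FPKM in eworo and from 59.3 to 63.7 FPKM in OreR. *CysRS-m* stood alone in 4 libraries and *TyrRS-m* in 1, while *SerRS-m* was joined in all 6. Values of joined entries belong to the joined genes together.

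Of 9 genes of mitochondrial transcription, replication and RNA handling all were above 1 FPKM in both strains. *TFAM*, which packs the mitochondrial genome and helps to start its transcription, had 152, 113 and 150 FPKM in eworo against 136, 151 and 121 FPKM in OreR, always joined with *EloB*. *mtTFB2*, a transcription factor, and *mtSSB*, which binds single-stranded mitochondrial DNA, followed, with *mtTFB2* at 8.92, 59.7 and 66.1 FPKM in eworo against 50.4 to 59.9 FPKM in OreR and *mtSSB* at 42.1 to 51.7 FPKM in eworo against 36.5 to 39.7 FPKM in OreR. *mtTFB2* stood alone in eworo 1 only and was joined with *CG3909* in the other 5 libraries, so that its higher values belong to both genes. *mtSSB* stood alone in 5 libraries and was otherwise joined with *CG6126*, so that its range includes a joined value. Of the 36 genes 17 had entries of their own that could be compared. By limma 0 of 17 were higher and 0 were lower in eworo, against 1.73% and 0.908% of all entries tested. An unadjusted p under 0.05 was found for 3 of the 17, near the 15.3% of all entries.

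An accessible site lay at an end of every one of the 73 genes in both strains. ATAC-Seq marks open DNA by the sites where a transposase inserts, and the deposited lists hold 44398 peaks for eworo and 42015 for OreR, each called on the pooled reads of 3 samples, so that there is no replicate error and no test. A peak overlapped the 500 bp to either side of an end of the gene in 73 of 73 genes in eworo and in 73 of 73 in OreR. Over 13946 protein-coding genes 72.7% had such a peak in eworo and 71% in OreR, and 68.9% had one in both strains. Among the 7598 of these above 1 FPKM the share was 86.8%, among the 2763 that are also at most 2000 bp long 80.6%, and among 92 genes of cytosolic ribosomal proteins 95.7%. The 4 genes listed at 0 FPKM in every library were among them, and their highest peaks had pileups of 73 to 78 tags in eworo and of 69 to 76 tags in OreR.

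The height of these peaks was close between the strains. The highest peak at the ends of each gene had a median pileup of 73 tags in eworo and 74 tags in OreR. At the median these peaks were 2.90 times the local background in eworo and 2.67 times in OreR. Over all protein-coding genes with a peak these medians were 2.76 and 2.60, likewise lower in OreR. The ratio of eworo over OreR had a median of 0.988, with 29 genes above 1, 37 below and 7 equal, against a median of 1.00 over all protein-coding genes. As the peak caller keeps 1 tag per position and strand, the pileup cannot exceed 100, and differences between high peaks are compressed. The tallest peaks were at *mRpS22* in eworo (86 tags, 81 in OreR) and at *mRpS16* in OreR (85 tags in eworo, 90 in OreR). The lowest were at *mRpS18B* in eworo (45 tags, 55 in OreR) and at *mRpS9* in OreR (57 tags in eworo, 50 in OreR).

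The summit of the highest peak lay at a median of 47 bp from the nearest end of the gene in eworo and 72 bp in OreR, against 144 bp and 145 bp over all protein-coding genes with a peak. The medians were nearer in more similar genes. They were 84 bp in eworo and 86 bp in OreR for genes above 1 FPKM and at most 2000 bp long. For cytosolic ribosomal protein genes they were 64 bp in eworo and 54 bp in OreR. For 61 of the 73 genes the highest peaks of both strains overlapped. The ends of neighbouring genes are close, however. In 72 of the 73 genes (98.6%) another protein-coding gene has an end within the same windows, as have 70.9% of all protein-coding genes and 84.7% of those above 1 FPKM and at most 2000 bp long. The exception was *mRpS5*. A peak therefore cannot be assigned to the gene itself rather than to its neighbour, and the table of gene positions used here gives no strand by which a start could be told from an end.

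**Figure D5:**
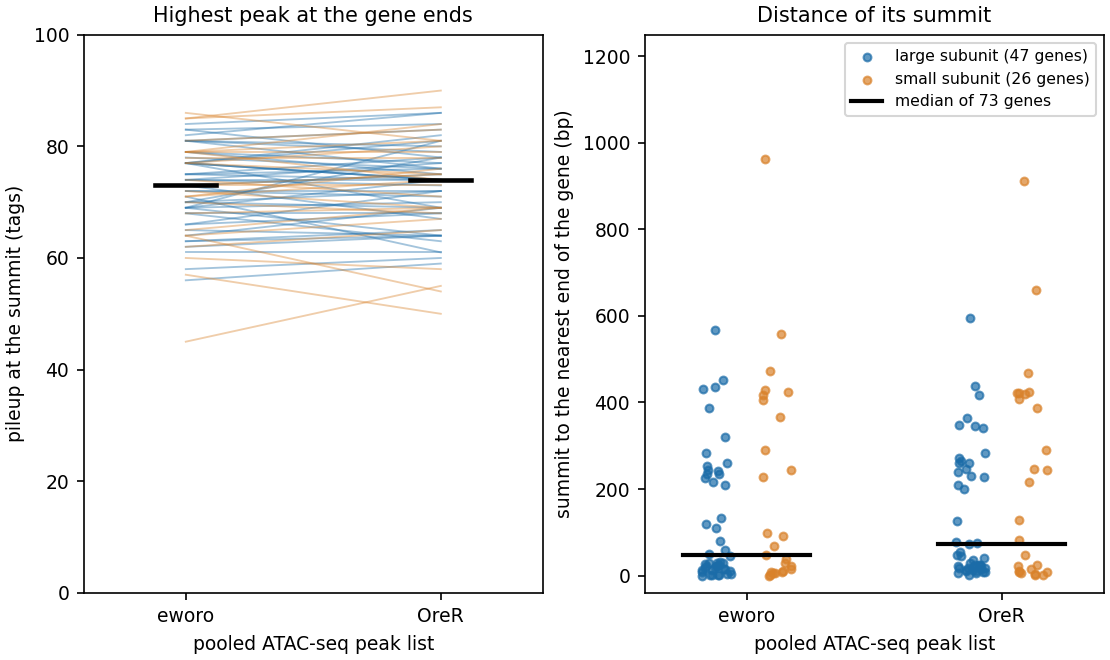
Left, pileup in tags at the summit of the highest ATAC-Seq peak at the ends of each of the 73 genes in the pooled peak lists of eworo and OreR, with 1 line per gene and bars at the medians of 73 and 74 tags. Right, distance in bp of that summit from the nearest end of the gene, with bars at the medians of 47 bp in eworo and 72 bp in OreR.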

How the data were processed

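RNA-Seq and ATAC-Seq were made on second legs of eworo and OreR pupae, 3 samples each per strain. For RNA the authors aligned stranded paired-end reads to the D. melanogaster genome with TopHat2 2.1.1 and deposited FPKM per library from Cufflinks 2.2.1, not scaled between libraries. A Cuffdiff table of the authors holds 1 pooled FPKM per strain, printed here as the authors' value, and their fold changes and p-values were not used. For ATAC-Seq the authors aligned reads with Bowtie2, filtered them with SAMtools and deposited MACS2 peaks per strain, called on pooled samples without a control, with a signal (pileup) of tags at the summit, a fold ratio to the background nearby and a -log10 q-value.

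The 73 genes were found by symbol, splitting joined names at commas. FPKM were divided by each library's median ratio to the geometric mean (0.998 to 1.011), and strain alone was fitted to log2(FPKM + 1) (limma 3.58.1 in R 4.3.3, eBayes with a variance trend, Benjamini-Hochberg over 4848 entries, threshold 0.05). An FPKM is not a count, so no count model was used, and the depth is known only through the deposited confidence limits. Samples of the same replicate number were not treated as pairs. Their deviations from the strain means correlated by -0.04, -0.11 and 0.05, and those of unlike numbers by -0.20 to 0.23. These values cannot show whether samples were collected in pairs. Peaks were matched to RefSeq gene ends of Release 6, which for 37 of 38 genes lie within 50 bp of the Cufflinks locus ends. Python 3.11.15, pandas 2.3.3, numpy 2.4.6 and matplotlib 3.10.9 were used.

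Genes were named by rule: those past the threshold, the 5 largest differences in each direction, the 5 highest and lowest levels, all with a 0, up to 4 joined genes, the highest 3 of each further list, *tko* and *bonsai*. Because genes with a 0 in some library took these places, the rule on differences and levels was applied again without them, after their values had been seen, and *mRpL53*, *mRpS14*, *mRpS18B*, *mRpS30*, *mRpL20*, *mRpL50* and *mRpS22* were likewise chosen by their values. The members, lists and tests were chosen with earlier results of these data known. The pupae of a replicate were pooled, and p-values measure the spread between pools. Genes of the mitochondrial genome and the sequences of the genes were not analysed here. Alternatives covered scaling, pseudocount, filters, joined entries, zeros, the variance trend, locus length, a block for replicate number and each library left out.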

Additional observations from a re-analysis of the deposited data

How the results depend on the processing

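No gene of the mitochondrial ribosome with an entry of its own passed the test in either direction under any scaling, pseudocount, filter, treatment of joined entries or of zeros, variance model, replicate block, locus-length trend or with any single library left out, and the lowest limma adjusted p under these settings was 0.0909. With eworo libraries 1 and 3 both left out, an alternative chosen after seeing the data, only 1 eworo library remains, so only differences are given. The differences of *mRpL19* (-4.89) and *mRpS31* (-4.72) then rest on their value of 0 in eworo 2. The medians turned negative with the locus-length trend removed, to -0.034 over all 36 genes, -0.026 for the large and -0.061 for the small subunit, and without eworo 1 and 3, to -0.064, -0.01 and -0.114. With 1 library left out they ran from 0.06 to 0.31, from 0.08 to 0.31 and from 0.04 to 0.30. With the trend removed 15 of the 36 genes changed sign, among them *mRpL12* (-0.041) and *mRpS26* (-0.182), and without eworo 1 and 3 also 15, among them *mRpS26* (-0.205). Of the other settings, zeros as missing turned 3, *mRpS17*, *mRpL19* and *mRpS31* with zeros as missing (0.15, 0.24 and 0.25), and leaving out 1 library turned 12. These were *mRpL1*, *mRpL21*, *mRpL48* and *mRpS2*, for which no difference is given, *mRpS17* (-2.825 to 0.147, positive without eworo 3), *mRpL19* (-2.381 to 0.234) and *mRpS31* (-2.316 to 0.25), both positive without eworo 2, *mRpL37* (-0.156 to 0.021, positive without eworo 2 or 3), *mRpS35* (-0.167 to 0.069) and *mRpL45* (-0.088 to 0.029), both positive without eworo 2, *mRpS26* (-0.076 to 0.149, negative without eworo 1 or OreR 3) and *mRpS9* (-0.006 to 0.118, negative without OreR 3).

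Over all entries tested, with 84 higher and 44 lower in eworo, a minimum of 5 FPKM gave 47 and 24, and a replicate block 14 and 13. Giving every symbol the value of its entry gave 70 lower, over 9555 symbols. With 1 library left out, 37 to 93 were higher and 23 to 60 lower. The replicate block changed no call among the genes of the mitochondrial ribosome. The causes of these changes were not tested. When entries of 1 gene with 1 name in all 6 libraries were required, which only 38 of the 73 genes have, 36 were above 1 FPKM in both strains. At a -log10 q of at least 10 a peak remained at an end of 55 genes in eworo and 44 in OreR. The share of all protein-coding genes at that limit is not given here, so these counts cannot be set against it. With Cufflinks locus ends, chosen after seeing the data, 38 of 38 genes had a peak in each strain. FPKM carry no read counts, so the depth behind a 0 is not known.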
